A study of Mus musculus with 29 samples.

Results

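The comparison described here asks what the loss of Puma does to gene expression in stem cell-enriched marrow cells that already lack Mysm1. It set 7 libraries labelled Mysm1-/-Puma-/- against 4 labelled Mysm1-/-Puma+/-, all from CD150-positive cells, and so used 11 of the 29 libraries of the series, chosen by their labels. C57BL/6 mice of 8 to 12 weeks gave the marrow, which was sorted for cells without lineage markers that carry cKit, Sca1 and CD150. All 11 libraries lack Mysm1, and the groups differ in whether 1 Puma copy remains. The submitters state that mice with 1 Puma copy look like Mysm1-/- mice. The names of the 7 Mysm1-/-Puma-/- libraries are P1 to P3 and B1, B3, B5 and B6, and the 4 Mysm1-/-Puma+/- libraries are A1 to A4. The CD150-positive cells of 2 Puma-/- libraries and of 4 wild-type libraries are given beside them for their levels. Neither the exons missing from each allele nor the number of mice per library is given, and nothing states that each library is a separate mouse. The p-values therefore speak of library-to-library spread alone, part of which may be technical.

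Puma, encoded by Bbc3, is a BH3-only protein that binds the survival proteins of the Bcl2 family and so frees Bax and Bak to open the mitochondrial outer membrane. It is a direct target of the transcription factor p53 and a main route from DNA damage to death in blood cells. Mysm1 removes ubiquitin from histone H2A, and mice without it have few blood stem cells and lymphocytes. The title of the series names Bbc3 as a gene that Mysm1 holds down in these cells. Blood stem cells of the CD150-positive fraction divide rarely, while most progenitors divide often.

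The 11 libraries held between 13948532 and 35034318 counts. Receptor genes of smell and pheromone sensing, 1443 genes taken as a measure of background reads, were at 464 to 5322 CPM (counts scaled to a fixed library total) in Mysm1-/-Puma-/- and 1023 to 2440 in Mysm1-/-Puma+/- libraries. B5, with 5322, exceeded 1.5 times the median of the CD150-positive libraries. The genes of the gate were detected in all 11 libraries. Slamf1, which encodes CD150, was at 11.2 to 20.2 CPM in Mysm1-/-Puma-/- and 16.5 to 30.5 CPM in Mysm1-/-Puma+/- libraries. Kit was at 585 to 821 CPM in Mysm1-/-Puma-/- and 547 to 704 CPM in Mysm1-/-Puma+/- libraries. Ly6a, which encodes Sca1, was at 9.65 to 23.3 CPM in Mysm1-/-Puma-/- and 12.3 to 17.7 CPM in Mysm1-/-Puma+/- libraries. P1 to P3 belong to a second naming series that holds no Mysm1-/-Puma+/- library, so a value within that series could not be had, and values without the P libraries are those within the first. Library A2 stood apart with 348 CPM of Xist, the noncoding RNA that silences an X chromosome. Xist was at 1.44 to 12.8 CPM in the Mysm1-/-Puma-/- libraries and at 2.93 to 6.48 CPM in A1, A3 and A4. The labels describe both sexes as pooled in each library, and the share of each sex in a library, A2 among them, was not tested.

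Bbc3 itself, on chromosome 7 from 16894965 to 16903554 of build NCBIM37, was counted in all 11 libraries, in overlapping ranges. It lay between 15.5 and 25.2 CPM, with a median of 18.6, in Mysm1-/-Puma-/- libraries and at 18.5, 19.2, 24.9 and 18.6 CPM in A1 to A4. The groups overlapped over nearly their whole range, and the log2 fold change was -0.07 ± 0.19 (SE; 95% interval -0.45 to 0.32). Puma-/- libraries with intact Mysm1 had 2.10 and 2.68 CPM and wild-type libraries 2.86 to 4.63 CPM, below all 11 libraries compared. A count over the whole gene does not show whether the transcript can be translated, so these counts do not check the Puma labels. Mysm1, on chromosome 4 from 94608731 to 94645791, was at 67.7 to 87.7 CPM, with a median of 84.3, in Mysm1-/-Puma-/- libraries and at 118, 101, 103 and 96.3 CPM in A1 to A4. The ranges did not meet. The log2 fold change was -0.38 ± 0.11 with an unadjusted p of 0.00268 and an adjusted p of 1.00 in edgeR's quasi-likelihood test. Mysm1 RNA was thus still counted in every mutant library, and the whole-gene count does not check the Mysm1 label.

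No gene passed the adjusted threshold. With Benjamini-Hochberg adjustment in edgeR, 0 of 20944 genes (0%) were called at an adjusted p under 0.05, and the smallest adjusted p was 0.482. At an unadjusted p under 0.05 there were 797 genes (3.81% of those tested), of which 276 (1.32%) were higher and 521 (2.49%) lower in Mysm1-/-Puma-/- libraries. DESeq2 called 3 genes, all higher, and left 434 higher and 475 lower at its unadjusted p under 0.05. Genes whose 2 groups shared no range numbered 34 (0.162%) on the higher and 28 (0.134%) on the lower side. A log2 fold change below 0 was found for 10077 genes (48.1%), and the median over all genes was 0.01. Without the P libraries edgeR again called 0 genes, with 449 higher and 441 lower at an unadjusted p under 0.05. Genes are therefore given below with their values, and none is called changed.

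**Figure D1:**
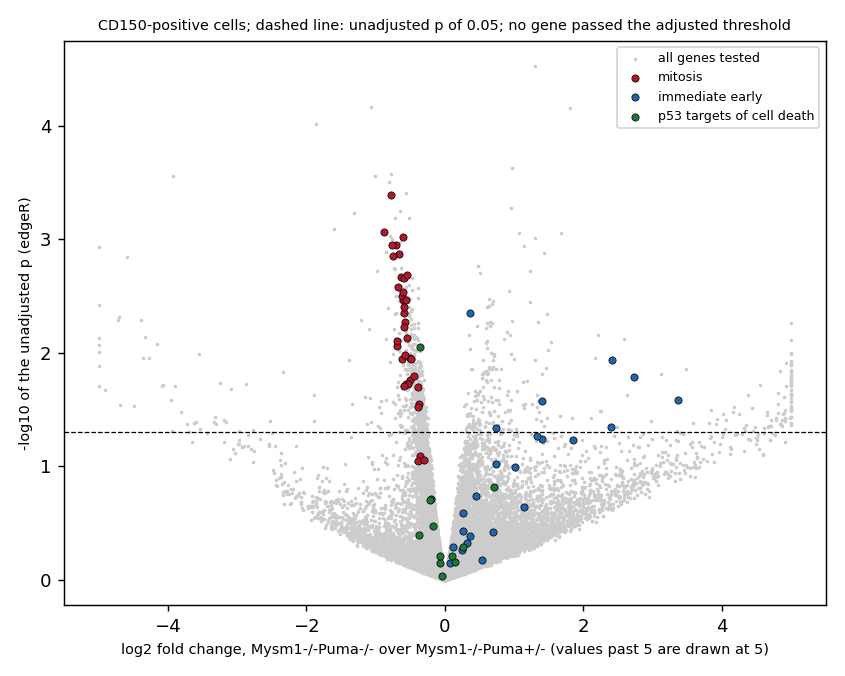
Each point is a gene, with its log2 fold change of Mysm1-/-Puma-/- over Mysm1-/-Puma+/- on the x axis and -log10 of the unadjusted edgeR p on the y axis. The 37 mitosis genes lie left of 0, with 34 above the dashed line at 0.05, while the 23 immediate early genes lie right of 0 and 11 of the 12 p53 targets of cell death lie below the line.

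Among the genes with the smallest p on the higher side, the Mysm1-/-Puma-/- levels overlapped those of the wild-type libraries, which are given beside them. Plxdc2, a transmembrane protein with a plexin domain on chromosome 2 from 16277931 to 16677466, was at 17.9 to 34.2 CPM with a median of 23.4 in Mysm1-/-Puma-/- libraries, and at 8.60, 8.54, 11.2 and 12.2 CPM in A1 to A4. All 7 libraries lay above all 4, and Puma-/- libraries had 22.3 and 30.0 and wild-type libraries 20.8 to 57.7 CPM. Its log2 fold change was 1.30 ± 0.25 (adjusted p = 0.482 in edgeR, 0.00101 in DESeq2 and 0.0422 in edgeR with receptor background as a covariate). Skint3, of a family of immunoglobulin-like membrane proteins whose near-identical copies make its count uncertain, was at 5.15 to 12.6 CPM with a median of 8.73 in Mysm1-/-Puma-/- libraries. It was at 3.41, 2.75, 0.787 and 2.95 CPM in A1 to A4, so the groups did not overlap (log2 fold change 1.81 ± 0.37, adjusted p = 0.482 in edgeR and 0.00227 in DESeq2), and wild-type libraries had 3.66 to 8.55 CPM. Sema3d, a secreted guidance signal, also separated the groups at a low level, with 1.75 to 6.27 CPM in Mysm1-/-Puma-/- libraries, against 0.669 to 1.47 CPM in A1 to A4 (1.68 ± 0.44, adjusted p = 0.842), and wild-type libraries had 2.25 to 3.52 CPM.

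Serpinf1, a secreted protein that blocks vessel growth, was at 13.9 to 26.2 CPM, with a median of 20.4, in Mysm1-/-Puma-/- libraries and at 14.7, 8.24, 6.997 and 11.8 CPM in A1 to A4. P3 at 13.9 lay below A1, the only overlap, and the log2 fold change was 0.97 ± 0.22 (adjusted p = 0.72 in edgeR and 0.0352 in DESeq2). Wild-type libraries had 18.3 to 31.97 CPM. Plag1, a zinc finger transcription factor, was at 13.9 to 25.2 CPM in Mysm1-/-Puma-/- libraries, against 8.04 to 13.9 CPM in A1 to A4 (0.96 ± 0.24), and wild-type libraries had 13.9 to 30.7 CPM. Hnf4a, a nuclear receptor best known from liver, was at 6.73 to 19.4 CPM in Mysm1-/-Puma-/- libraries, against 4.41 to 6.84 CPM in A1 to A4 (1.08 ± 0.28), and wild-type libraries had 16.01 to 25.4 CPM. For both the groups met only at their edges, and the adjusted p was 0.842.

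On the lower side Selp, P-selectin of platelets and vessel walls, came first. It was at 14.4 to 33.0 CPM, with a median of 19.6, in Mysm1-/-Puma-/- libraries and at 29.3, 45.6, 42.7 and 57.3 CPM in A1 to A4. B1 with 33.0 lay above A1, and the other 6 Mysm1-/-Puma-/- libraries lay below all of A1 to A4. Wild-type libraries had 6.92 to 14.3 CPM, and the log2 fold change was -1.07 ± 0.22 (adjusted p = 0.482). Gem, a small GTP-binding protein of the cell cortex, was at 8.87 to 26.7 CPM in Mysm1-/-Puma-/- libraries, against 139 and 101 CPM in A1 and A2 and 25.6 and 23.1 CPM in A3 and A4. A1 and A2 were far above all others while A3 and A4 lay inside the Mysm1-/-Puma-/- range, and the log2 fold change of -1.86 ± 0.39 became -1.32 without A1. Tpm4, a tropomyosin of the actin skeleton, was at 20.01 to 52.6 CPM in Mysm1-/-Puma-/- libraries, against 87.5, 70.9, 44.9 and 56.3 CPM in A1 to A4 (-1.005 ± 0.23, adjusted p = 0.72).

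Genes of chromosome segregation also stood among the smallest p. Kif18a, a kinesin that trims spindle microtubules, was at 12.3 to 24.2 CPM, with a median of 20.8, in Mysm1-/-Puma-/- libraries and at 42.2, 30.7, 31.7 and 25.4 CPM in A1 to A4. The ranges did not meet, and the log2 fold change was -0.77 ± 0.18 (adjusted p = 0.72). Cenpp, a centromere protein whose locus on chromosome 13 spans several genes on the other strand, was at 11.2 to 15.7 CPM in Mysm1-/-Puma-/- libraries, against 30.2, 22.8, 24.4 and 13.8 CPM in A1 to A4 (-0.81 ± 0.19, adjusted p = 0.72). A4 alone lay inside the Mysm1-/-Puma-/- range. Xist had the largest value of the lower group, -3.93 ± 0.90, which became 0.46 without A2.

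**Figure D2:**
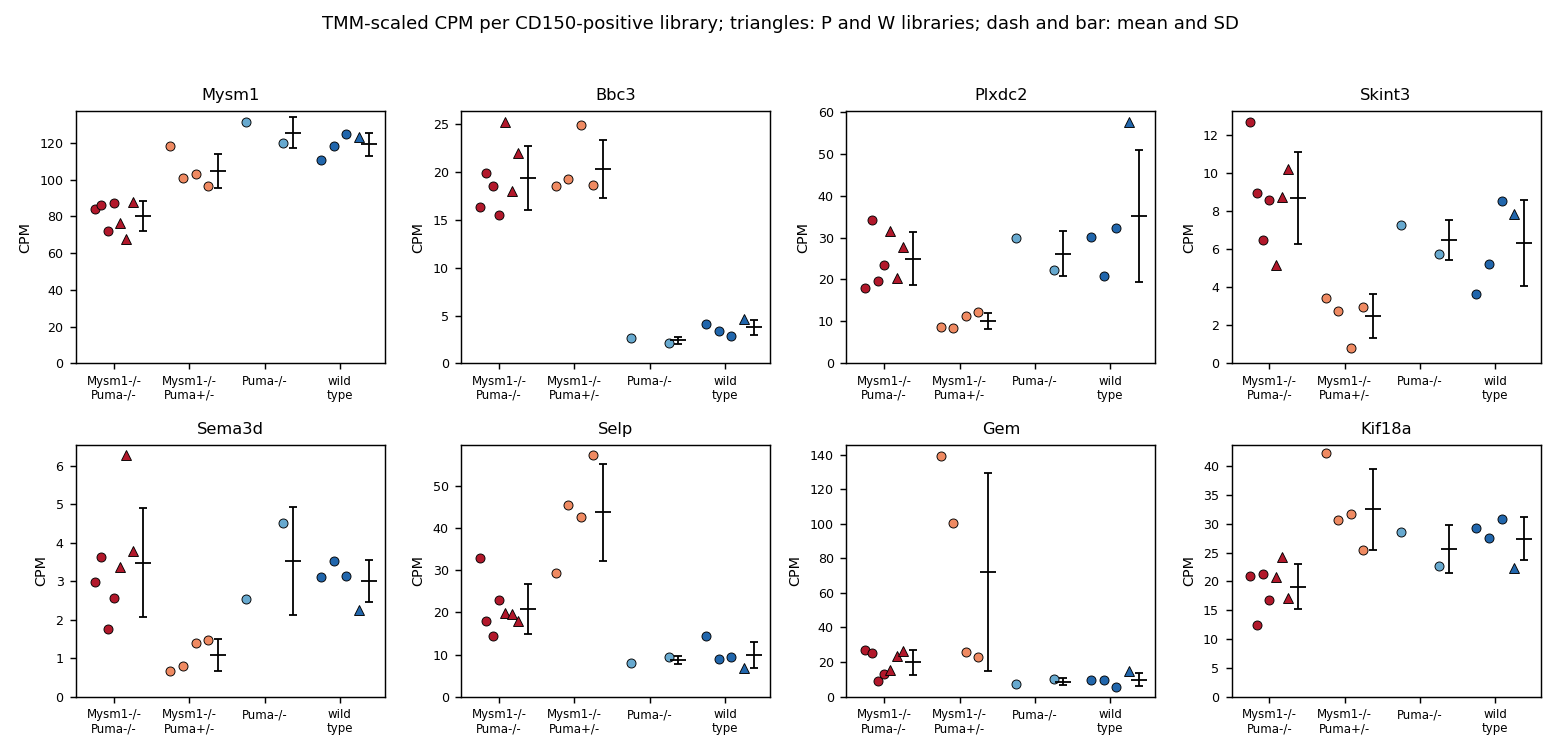
TMM-scaled CPM of 8 genes in every CD150-positive library, grouped by genotype on the x axis; triangles are P and W libraries, and the dash and bar are the mean and SD. Plxdc2, Skint3 and Sema3d separate the 7 Mysm1-/-Puma-/- libraries from the 4 Mysm1-/-Puma+/- libraries, Kif18a separates them the other way, and Gem is high in 2 Mysm1-/-Puma+/- libraries.

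In their list mean, the p53 targets of cell death overlapped between the Mysm1-deficient genotypes and lay above the libraries with intact Mysm1 in both. Of 12 p53 targets of cell death, 0 were called, 0 were higher and 1 was lower at an unadjusted p under 0.05, and the median log2 fold change was -0.07, beside 0.01 over all genes. Over the list the mean log2 CPM was 4.69 to 5.03 in Mysm1-/-Puma-/- and 4.70 to 5.06 in Mysm1-/-Puma+/- libraries, against 3.83 in both Puma-/- libraries and 3.45 to 3.89 in wild-type libraries. The member with p under 0.05 was Apaf1, the scaffold of the apoptosome that Puma acts upstream of. Apaf1 was at 49.5 to 70.1 CPM, with a median of 58.9, in Mysm1-/-Puma-/- libraries and at 72.4, 70.2, 85.4 and 74.7 CPM in A1 to A4. The ranges touched without overlap, and the log2 fold change was -0.35 ± 0.12 (unadjusted p = 0.00886, adjusted p = 1.00 in edgeR). Bax, the pore former that Puma sets free, was at 33.5 to 44.7 CPM in Mysm1-/-Puma-/- libraries, against 49.6, 51.8, 45.6 and 31.2 CPM in A1 to A4 (-0.20 ± 0.15). Wild-type libraries had 15.7 to 21.1 CPM. A4 had less Bax than any Mysm1-/-Puma-/- library and A1 to A3 had more. Ei24, another p53 target in this list, was at -0.21 ± 0.16.

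Pmaip1, which encodes the BH3-only protein Noxa, differed between the naming series. It was at 3.88, 7.97, 4.92 and 3.15 CPM in B1, B3, B5 and B6, and at 11.5, 23.0 and 16.4 CPM in P1, P2 and P3, against 7.63, 6.57, 6.78 and 3.80 CPM in A1 to A4. The P libraries were the 3 highest, and the B libraries lay around the A range. The log2 fold change was 0.71 ± 0.48 with all libraries and -0.31 without the P libraries.

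Of 10 p53 targets of cell cycle arrest and feedback, 1 was higher and 0 were lower at an unadjusted p under 0.05 (median 0.17). Cdkn1a, the cell cycle inhibitor p21, was at 16.96 to 28.1 CPM, with a median of 22.7, in Mysm1-/-Puma-/- libraries and at 24.6, 20.8, 19.5 and 11.9 CPM in A1 to A4. Wild-type libraries had 0.396 to 2.34 CPM. The 2 mutant groups overlapped, and the log2 fold change was 0.27 ± 0.28 (95% interval -0.31 to 0.85). Plk3, a stress-responsive kinase, was the member with p under 0.05, at 1.34 to 6.94 CPM in Mysm1-/-Puma-/- libraries, against 1.27 to 2.68 CPM in A1 to A4 (1.35 ± 0.57). Without the P libraries its log2 fold change was 0.74 and 0 of the 10 genes had an unadjusted p under 0.05. Btg2, an antiproliferative gene, and Plk2, another polo-like kinase, were at 0.40 ± 0.28 and 0.64 ± 0.47. None of 12 p53 targets of repair and metabolism had a p under 0.05 (median 0.08, and -0.087 without the P libraries), among them Rrm2b, a ribonucleotide reductase subunit (0.23 ± 0.18), and Ddb2, a sensor of damaged DNA (0.27 ± 0.23).

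Outside the p53 targets, 27 genes of the Bcl2 family and the caspases had a median of -0.11, with 0 higher and 1 lower at an unadjusted p under 0.05. That gene was Cycs, which encodes the cytochrome c released when Puma acts. Cycs was at 126 to 146 CPM, with a median of 133, in Mysm1-/-Puma-/- libraries and at 217, 198, 163 and 102 CPM in A1 to A4 (-0.34 ± 0.15). Without the P libraries 0 genes of this list had an unadjusted p under 0.05. The Mysm1-/-Puma-/- libraries lay close together, between A4 and the other A libraries. Diablo, an antagonist of caspase inhibitors released beside it, was at -0.22 ± 0.15.

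**Figure D3:**
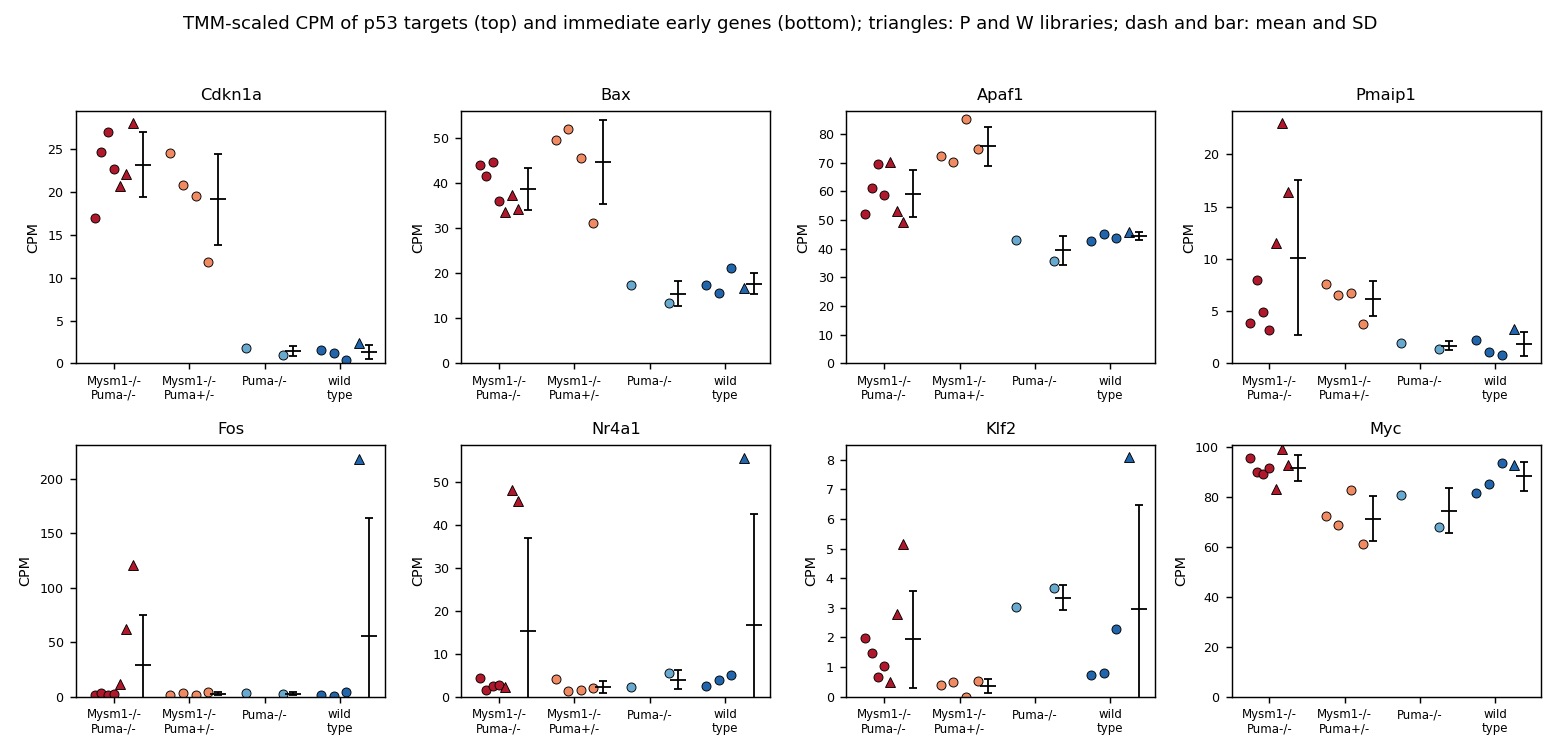
TMM-scaled CPM of 4 p53 targets and 4 immediate early genes in every CD150-positive library, grouped by genotype on the x axis; triangles are P and W libraries, and the dash and bar are the mean and SD. The p53 targets are high in both Mysm1-deficient genotypes and overlap between them, except for Apaf1, whose ranges do not overlap. Fos and Nr4a1 are high in P2, P3 and the wild-type library W1.

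Genes of mitosis lay lower as a list. Of 37 mitosis genes, all tested, 0 were called in either direction, 34 were lower and 0 higher at an unadjusted p under 0.05, and all 37 had a log2 fold change below 0. Over all genes 2.49% were lower at that p and 48.1% lay below 0. The median log2 fold change of the list was -0.58, with members between -0.88 and -0.30, and -0.61 without the P libraries, where 33 were lower at an unadjusted p under 0.05. None of the 37 separated the groups, since A4 lay among the Mysm1-/-Puma-/- libraries. These genes share the division cycle and are not independent of each other.

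The level of the list in each library shows how the A libraries spread. Its mean log2 CPM was 6.09 in B1, 6.34 in B3, 6.02 in B5 and 5.98 in B6, and 6.34 in P1, 6.24 in P2 and 6.00 in P3. Among the Mysm1-/-Puma+/- libraries A1 had 7.17, A2 6.87, A3 6.62 and A4 6.03. The list was at 6.37 and 6.47 in Puma-/- libraries and 6.31 to 6.67 in wild-type libraries. A1 and A2 lay above all other CD150-positive libraries, A3 lay within the wild-type range and A4 within the Mysm1-/-Puma-/- range. The 7 Mysm1-/-Puma-/- libraries lay below A1 in 35 of the 37 genes, below A2 in 32, below A3 in 28 and below A4 in 0. Leaving out A1 took the median to -0.39 and the number at an unadjusted p under 0.05 to 18, and leaving out A4 took the median to -0.76. The mean level in Mysm1-/-Puma-/- libraries was below the wild-type mean in 37 of 37 genes, and that in Mysm1-/-Puma+/- libraries was above it in 33, so that both counts rest on the same wild-type libraries.

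The members with the smallest p show the same spread. Kif2c, a kinesin that corrects faulty attachments of chromosomes, was at 28.0 to 49.2 CPM, with a median of 39.1, in Mysm1-/-Puma-/- libraries and at 95.5, 77.9, 63.3 and 37.5 CPM in A1 to A4 (log2 fold change -0.78 ± 0.19, adjusted p = 0.771 in edgeR). Ect2, which sets the site of cell division through RhoA, was at 20.6 to 38.5 CPM in Mysm1-/-Puma-/- libraries, against 90.6, 61.1, 47.5 and 24.2 CPM in A1 to A4 (-0.88 ± 0.23, adjusted p = 0.842). A1 to A3 lay above the highest Mysm1-/-Puma-/- library in both genes and A4 did not. Prc1, which bundles microtubules of the spindle midzone, was at 101 to 136 CPM in Mysm1-/-Puma-/- libraries, against 116 to 251 CPM in A1 to A4 (-0.60 ± 0.16). Ccna2, cyclin A of S phase and early mitosis, was at 62.6 to 111 CPM in Mysm1-/-Puma-/- libraries, against 87.6 to 190 CPM in A1 to A4 (-0.71 ± 0.19), both with an adjusted p of 0.842. Without A4, edgeR called 9 genes, all lower, among them Ect2, Kif2c, Cenpp and Gem with adjusted p between 0.0361 and 0.0479.

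Promoters of mitosis genes often carry a cell cycle homology region, TTTGAA, downstream of CCAAT boxes, through which they are held down outside the G2 and M phases. RefSeq promoter windows of build GRCm38.p6 matched 32 of the 37 genes, and the 250 bases before the start were searched on both strands. TTTGAA was found in 11 of the 32 (34.4%), against 16.3% of 27025 windows of all genes. CCAAT was found in 26 (81.2%), against 34.5%, and both motifs in 10 (31.2%), against 5.73%. The 120 bases before the start are printed, with matches of either motif or its reverse complement in capitals, for the 3 members with both motifs in that stretch and the smallest p: Ect2 on chromosome 3, Cdk1, the mitotic kinase, on chromosome 10, and Kif11, a kinesin that parts the spindle poles, on chromosome 19. A match is a string of letters and not shown to be a site. The order of the motifs was not scored, and in Ect2 the marked TTTGAA lies upstream of both marked CCAAT matches.
Ect2: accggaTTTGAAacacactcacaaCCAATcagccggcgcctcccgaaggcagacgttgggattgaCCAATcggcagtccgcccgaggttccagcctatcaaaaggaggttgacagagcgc
Cdk1: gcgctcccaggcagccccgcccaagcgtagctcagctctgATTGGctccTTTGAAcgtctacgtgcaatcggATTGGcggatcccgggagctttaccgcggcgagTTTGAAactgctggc
Kif11: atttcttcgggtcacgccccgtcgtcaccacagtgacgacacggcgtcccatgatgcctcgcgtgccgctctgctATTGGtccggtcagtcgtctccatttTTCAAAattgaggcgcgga

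**Figure D4:**
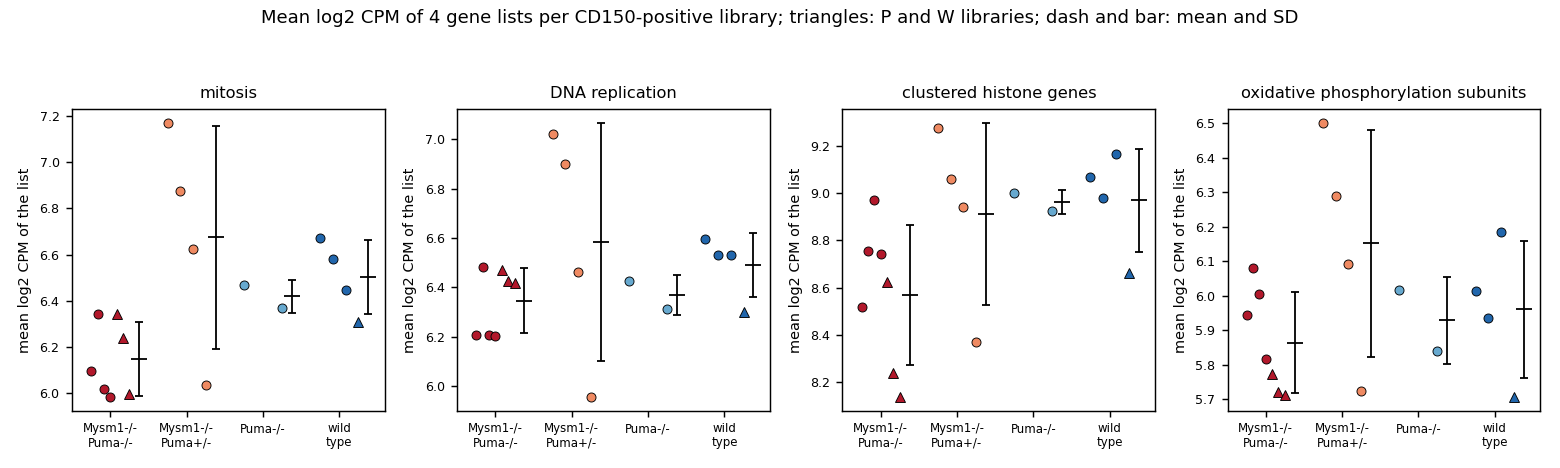
Mean log2 CPM of 4 gene lists in every CD150-positive library, grouped by genotype on the x axis; triangles are P and W libraries, and the dash and bar are the mean and SD. In all 4 lists A1 and A2 lie at or near the top and A4 lies among or below the 7 Mysm1-/-Puma-/- libraries.

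Lists tied to growth also had medians below 0, nearer to it. In DNA replication, histones, oxidative phosphorylation and both ribosomal protein lists the A libraries stood in the same order from A1 to A4. Of 41 DNA replication genes 9 were lower and 0 higher at an unadjusted p under 0.05 (median -0.32, and -0.42 with 16 lower without the P libraries). Over all genes 2.49% were lower at that p, and 441 of 20797 without the P libraries. Rrm2 and Rrm1, the subunits of ribonucleotide reductase that supply DNA precursors, were at -0.62 ± 0.19 and -0.52 ± 0.19. Rrm2 had 39.6 to 70.3 CPM in Mysm1-/-Puma-/- libraries and 96.5, 98.5, 78.5 and 41.0 CPM in A1 to A4, so again A4 fell inside the Mysm1-/-Puma-/- range. Ccne2, cyclin E2, and Mcm10, a replication initiation factor, were at -0.73 ± 0.24 and -0.45 ± 0.18. Of 15 G1 cyclins and inhibitors 1 was lower, Rbl1, the repressor p107 (-0.35 ± 0.16), with a list median of -0.12.

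Of 63 clustered histone genes tested, which are transcribed in S phase and share near-identical coding sequences, 13 were lower and 0 higher at an unadjusted p under 0.05 (median -0.32). Hist1h1b and Hist1h1a, linker histones, were at -0.70 ± 0.21 and -0.53 ± 0.21. Without the P libraries the median was -0.15 with 1 lower, and P2 and P3 had the lowest mean log2 CPM of the list, 8.24 and 8.13, against 8.37 to 9.28 in A1 to A4. Of 73 subunits of oxidative phosphorylation 16 were lower and 0 higher (median -0.29, and -0.22 with 5 lower without the P libraries). Ndufa12, of complex I, was at 47.0 to 81.1 CPM in Mysm1-/-Puma-/- libraries, against 142, 104, 93.7 and 65.4 CPM in A1 to A4 (-0.64 ± 0.20), and Uqcrh, of complex III, was at -0.44 ± 0.15. Of 75 mitochondrial ribosomal protein genes 10 were lower (median -0.23, and -0.16 with 3 lower without the P libraries), among them Mrpl13 (-0.52 ± 0.16) and Mrpl48 (-0.41 ± 0.15). Of 82 cytosolic ribosomal protein genes 4 were lower (median -0.21, and -0.10 with 0 lower without the P libraries), among them Rps27a (-0.36 ± 0.16) and Rpl7a (-0.34 ± 0.16). Beside these counts, 2.49% of all genes were lower at that p. The mitochondrial chaperones Hspe1 and Hspd1, at -0.44 ± 0.15 and -0.37 ± 0.17, were the 2 of 21 stress and heat shock genes at that p. Every adjusted p in these lists was 1.00. Receptor background had a median log2 fold change of 0.53, and its part in these values was not tested beyond the covariate. Under the covariate 19 histone and 29 oxidative phosphorylation genes were lower at an unadjusted p under 0.05. For mitochondrial and cytosolic ribosomal protein genes these numbers were 14 and 18, and the mitosis median was -0.56.

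**Figure D5:**
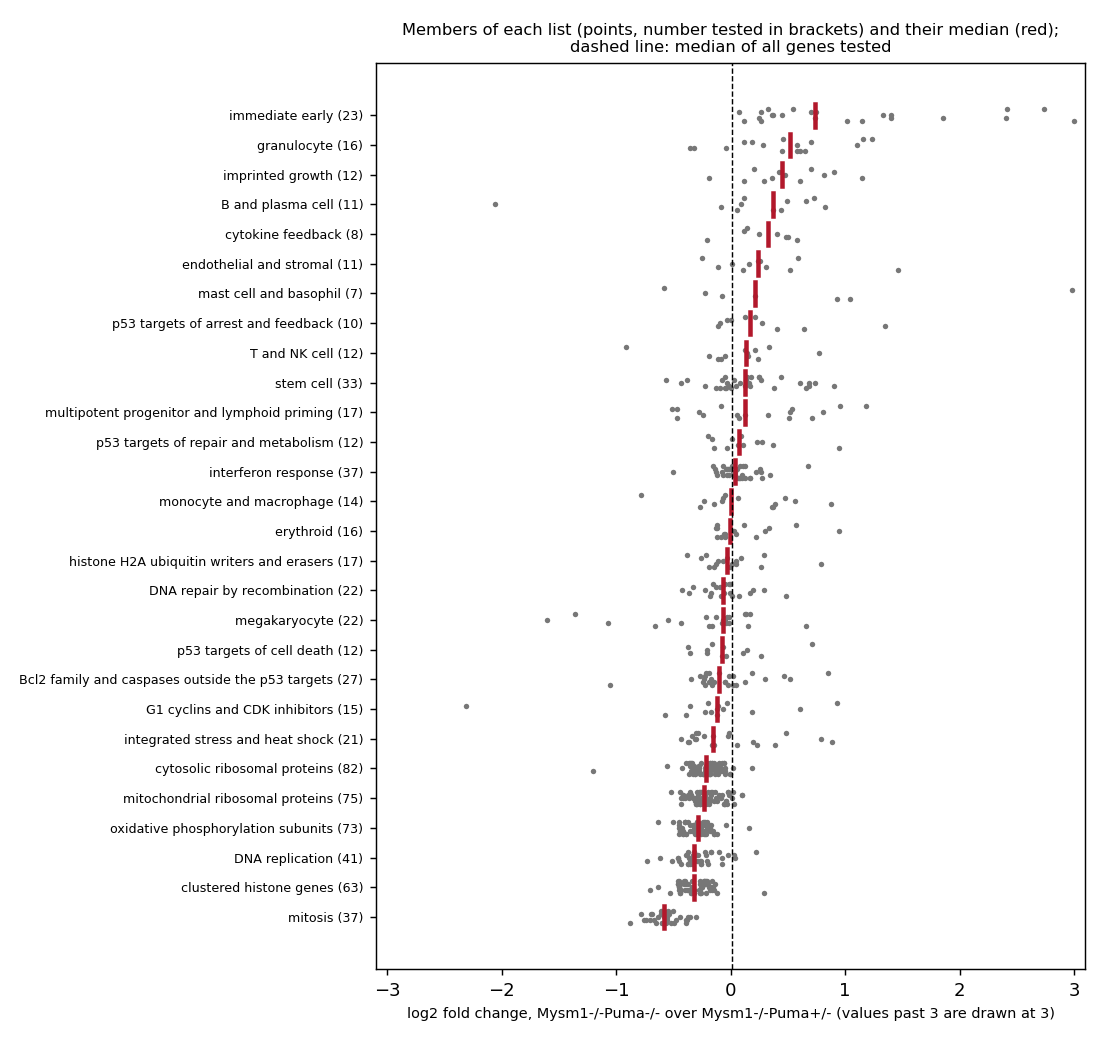
Log2 fold change of Mysm1-/-Puma-/- over Mysm1-/-Puma+/- on the x axis for the tested members of each of 28 gene lists, one list a row, with the list median in red and the median of all genes as a dashed line. Mitosis has the lowest median, -0.58, and immediate early genes the highest, 0.74, while the 3 p53 lists lie near 0.

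Stem cell genes were mixed. Of 33 on the list 5 were higher and 1 lower at an unadjusted p under 0.05, with a median of 0.12, which was -0.043 without A2, and without the P libraries 3 were higher and 0 lower. At that p 1.32% of all genes were higher and 2.49% lower. Robo4, a receptor that anchors stem cells in the marrow, was at 17.8 to 21.9 CPM, with a median of 18.8, in Mysm1-/-Puma-/- libraries and at 10.1, 7.41, 14.5 and 15.8 CPM in A1 to A4. The ranges did not meet (0.68 ± 0.21, unadjusted p = 0.00374). Ndn, an imprinted gene linked to quiescence, was at 4.75 to 11.4 CPM in Mysm1-/-Puma-/- libraries, against 2.45 to 5.09 CPM in A1 to A4 (0.90 ± 0.30). Slamf1, the gene of the sorting marker, was the lower member at -0.56 ± 0.19, and all of these had an adjusted p of 1.00. In bulk RNA, fewer cells of a type and less RNA per cell cannot be told apart.

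Of 12 imprinted growth genes 3 were higher and 0 lower at an unadjusted p under 0.05, with 11 above 0 and a median of 0.45. The share of all genes higher at that p was 1.32%. Grb10, an adaptor that dampens growth factor receptors, was at 47.9 to 73.4 CPM, with a median of 63.1, in Mysm1-/-Puma-/- libraries and at 45.5, 43.0, 41.5 and 42.5 CPM in A1 to A4. The ranges did not meet, and wild-type libraries lay higher again at 74.7 to 100.3 CPM (0.48 ± 0.13, adjusted p = 0.964 in edgeR). Rian, a maternally expressed noncoding RNA that holds many small RNA genes, was at 1.15 ± 0.50, and Cdkn1c, the imprinted cell cycle inhibitor p57, at 0.60 ± 0.30 with an unadjusted p of 0.0584. Among 17 genes of multipotent progenitors and lymphoid priming 2 were higher, Satb1 (0.96 ± 0.34) and Mn1 (0.71 ± 0.25), with a list median of 0.12. Without the P libraries 1 was higher and 3 lower at that p, the median was 0.044 and the log2 fold change of Satb1 was 0.26. Mn1 separated the groups narrowly, with 5.77 to 14.6 CPM in Mysm1-/-Puma-/- libraries, against 4.95 to 5.76 CPM in A1 to A4. Cd48, a surface marker of progenitors, was at 11.4 to 26.8 CPM in Mysm1-/-Puma-/- libraries, against 37.8, 38.8, 22.6 and 11.5 CPM in A1 to A4 (-0.51 ± 0.27), with A1 and A2 above all Mysm1-/-Puma-/- libraries.

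Of 22 megakaryocyte genes 1 was higher and 2 lower at an unadjusted p under 0.05, with a median of -0.07, which was 0.12 without the P libraries and 0.11 without A4. Among all genes 1.32% were higher and 2.49% lower at that p. The lower megakaryocyte genes were Selp and Thbs1, thrombospondin of platelet granules, which was at 2.42 to 13.02 CPM in Mysm1-/-Puma-/- libraries, against 6.69, 19.1, 32.4 and 22.3 CPM in A1 to A4 (-1.60 ± 0.41, adjusted p = 0.842). A1 lay inside the Mysm1-/-Puma-/- range and the other 3 above it, so that the order of the A libraries was not that of the mitosis genes. Ppbp, a platelet chemokine, was at -1.36 ± 0.67. The mean log2 CPM of the whole list was 3.81 to 5.00 in Mysm1-/-Puma-/- and 4.23 to 5.44 in Mysm1-/-Puma+/- libraries.

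Immediate early genes, which are induced within minutes of stimulation or handling, were high in P2, P3 and W1 of the second naming series. The mean log2 CPM of the list was 2.73, 4.15 and 4.42 in P1, P2 and P3 and 2.52 to 2.78 in the B libraries, against 2.00 to 2.89 in A1 to A4, and 4.61 in W1. All 23 lay above 0, with 7 higher and 0 lower at an unadjusted p under 0.05 and a median of 0.74, which was 0.20 with 2 higher without the P libraries. Higher at that p were 1.32% of all genes, and 449 of 20797 without the P libraries. Fos was at 11.5, 62.3 and 120.5 CPM in P1, P2 and P3, at 1.55 to 2.98 CPM in the B libraries and at 1.91, 2.99, 1.79 and 4.56 CPM in A1 to A4. The wild-type library W1 of the second series had 218 CPM and the other wild-type libraries 0.801 to 4.23 CPM. The B libraries thus overlapped the A libraries, and the log2 fold change of 3.37 ± 1.41 was -0.30 without the P libraries. Nr4a1, an orphan nuclear receptor, was high in P2 and P3 at 48.1 and 45.5 CPM and at 1.32 to 4.15 CPM in A1 to A4 (2.74 ± 1.05), and Klf2, a transcription factor of quiescence, was at 0.480 to 5.15 CPM in Mysm1-/-Puma-/- libraries, against 0 to 0.536 CPM in A1 to A4 (2.41 ± 0.87). Myc differed from these. It was at 83.2 to 99.2 CPM in Mysm1-/-Puma-/- libraries, all above the 72.4, 68.7, 83.0 and 61.2 CPM of A1 to A4, with B and P libraries mixed (0.36 ± 0.11, unadjusted p = 0.00441, adjusted p = 1.00).

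Markers of other cell types gave no called gene, and 0 genes of the B and plasma cell, T and NK cell, granulocyte and erythroid lists had a p under 0.05 in either direction, while without the P libraries 1 T and NK cell gene and 1 erythroid gene were higher at that p. Granulocyte genes had a median of 0.52, with a mean log2 CPM of 3.12 to 4.64 in Mysm1-/-Puma-/- and 3.65 to 3.75 in Mysm1-/-Puma+/- libraries. Without the P libraries 6 of 16 were higher at that p (median 0.62), beside 449 of all 20797 genes. With the replicate block, a block by library number, the median was -0.24. A4, B5 and B6, whose numbers no other library compared shares, add nothing to the contrast of that block. Igj, the joining chain of antibodies made by plasma cells, ranged from 12.5 to 2448 CPM in Mysm1-/-Puma-/- libraries and was at 730, 481, 37.0 and 215 CPM in A1 to A4. That spread ran across genotypes. Single genes with an unadjusted p under 0.05 were Csf1r of monocytes and macrophages (0.87 ± 0.38), Ms4a2 and Mcpt4 of mast cells (1.04 ± 0.42 and 2.98 ± 1.36) and Stab2 of sinusoidal endothelium (1.46 ± 0.54). Monocyte and macrophage genes had 7 members above 0 and 7 below (median 0.004), and mast cell and basophil genes 4 and 3 (median 0.21). Endothelial and stromal genes had 9 above 0 and 2 below (median 0.23). Mcpt4 was near 0, with 0.0409 to 3.71 CPM in Mysm1-/-Puma-/- and 0 to 0.262 CPM in Mysm1-/-Puma+/- libraries. Without the P libraries 0 genes of these 3 lists had a p under 0.05, and Csf1r, Ms4a2 and Stab2 were at 0.77, 0.48 and 0.89. Erythroid genes had a mean log2 CPM of 3.46 to 5.39 in Mysm1-/-Puma-/- and 2.79 to 5.31 in Mysm1-/-Puma+/- libraries. The part of these cells in the values above was not tested. Interferon response genes had 0 of 37 at that p and a median of 0.03. With the replicate block 12 of these 37 were higher at that p and the median was 0.32, and without A4 the median was 0.32.

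Whether Puma loss acted differently in CD150-positive and CD150-negative cells was tested in a fit of all 29 libraries, where the CD150-negative side had 3 libraries of each genotype. Libraries of the same name in CD150-positive and CD150-negative cells were not linked in that fit. No gene was called among 21830 in edgeR, where 462 (2.12%) had an unadjusted p under 0.05 and the smallest adjusted p was 1.00, and DESeq2 called 0 genes with a smallest adjusted p of 0.0759. The genes with the smallest p were Slamf1, with a difference in log2 fold change of -1.71, Tnk2, a kinase (0.75), Polr2e, a subunit of RNA polymerases (0.61), and Ptpdc1, a phosphatase (-1.23). Slamf1 is the gene of the receptor that parted the populations. In CD150-negative cells 222 genes (1.05% of 21168) were called lower, among them 22 of the 37 mitosis genes, whose median there was -0.76. The CD150-negative Mysm1-/-Puma+/- libraries are A1 to A3, with no A4. In CD150-positive cells A4 lay within the Mysm1-/-Puma-/- range of the mitosis list, and without A4 the mitosis median was -0.76 there too. None of the 37 had an unadjusted p under 0.05 for the difference between populations, and the median difference was 0.14, beside -0.04 over all genes. Clustered histone genes differed in this count, with 53 of 63 called lower in CD150-negative cells (median -0.90) and 19 of 63 at an unadjusted p under 0.05 for the difference, with a median difference of 0.62. Bax, called lower in CD150-negative cells (-0.66, adjusted p = 0.04997), had a difference of 0.43 with an unadjusted p of 0.0456. Plxdc2, Serpinf1, Hnf4a, Plag1 and Sema3d, given above as values, were called higher in CD150-negative cells with log2 fold changes of 1.35, 1.19, 1.06, 1.60 and 2.01. Grb10 was at 0.48 in CD150-positive and -0.01 in CD150-negative cells, with an unadjusted p of 0.0833 for the difference.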

How the data were processed

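Counts of reads per gene, in whole numbers, were deposited by the authors for 23366 gene symbols and 29 libraries of RNA freed of ribosomal RNA. The submitters' processing notes name FastQC, Trimmomatic 0.33, TopHat2 2.0.9, Bowtie 1.0.0, featureCounts, edgeR, R 3.4.2 and build mm9, without giving their settings. Strand setting and annotation of the counting are not stated there, so reads of overlapping, antisense or near-identical genes cannot be told apart. A deposited matrix of normalised CPM for 12578 genes, whose making is not given in the sources used here, served as an alternative. It held 0 columns of other samples, and its sorted values differed between libraries by a median of 0.246%. Libraries within each of the 2 groups compared differed by more than counting noise, with chi-square values of at least 29.0 per degree of freedom.

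The 17 CD150-positive libraries, in 4 genotype groups, entered 1 fit with edgeR 4.0.16 in R 4.3.3, filtered by filterByExpr and scaled by TMM. Its quasi-likelihood test gave each p unless another tool is named, and a gene was called where the p, after Benjamini-Hochberg adjustment, was under 0.05. A standard error is the absolute log2 fold change over the root of F. Levels are TMM-scaled CPM, lists are given as mean log2 CPM with a prior count of 2, and receptor background is in CPM of library totals without TMM. The tests were tried on simulated counts first.

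The members and the 28 lists were chosen with earlier results of these data known, and 1 of 758 list entries, Ighm, was not matched. Named were Mysm1, Bbc3, the 6 genes with the smallest p in each direction that averaged 1 or more on the log2 CPM scale and had no predicted or clone name, for each list described the 4 or fewer members of smallest p, and the 4 smallest of the difference between populations; 1 gene that this rule names is not reported here. Alternatives were RLE factors, DESeq2 1.42.0, 2 other filters, the 2 groups alone, limma 3.58.1 voom with quality weights, limma-trend on the deposited CPM (log2, 1 added), leaving out the P or the P and W libraries, naming series or receptor background as a covariate, leaving out libraries of high background, a block by library number and leaving out each of the 11 libraries. Gene positions are from GENCODE M1 on NCBIM37, the sequence of mm9.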

Additional observations from a re-analysis of the deposited data

Results flagged for a closer look

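A library far from the others of its group, by the gap to its neighbour as a share of the group's range, was found in 8 of 194 groups of values examined, where chance gives about 1 in 20. That number is not above what chance gives, and the libraries below are given as values. In Mysm1-/-Puma-/- libraries Plk2 was at 20.7 CPM in P3 with the next at 11.6 CPM, and Igj at 2448 CPM in B1 with the next at 1043 CPM. In Mysm1-/-Puma+/- libraries A2 stood apart in Xist (348 CPM, next 6.48), Stab2 (4.61 CPM, next 1.79), Btg2 (15.5 CPM, next 29.9) and Kit (547 CPM, next 684). Bbc3 was at 24.9 CPM in A3, with the next at 19.2, and Plk3 was at 2.68 CPM in A4, with the next at 1.31.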

How the results depend on the processing

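The count of 0 called genes became 3 with DESeq2 and 1 with background as a covariate, and lay between 0 and 9 when libraries were left out in turn, with 9 without A4. The cause was not tested. The deviations of same-numbered libraries correlated between -0.28 and 0.31, and those of differently numbered libraries between -0.45 and 0.47. Within the first naming series the correlation was -0.05 for B1 with A1 and 0.09 for B3 with A3. The other same-numbered pairs join P to A libraries across naming series. So few pairs cannot decide whether the library numbers pair the libraries. With the replicate block 0 genes were called, 36 mitosis genes were lower at an unadjusted p under 0.05 and the mitosis median was -0.64. A4, B5 and B6 share their numbers with no other library compared, so they add nothing to the contrast of that block. Leaving out libraries in turn took the number of mitosis genes at that p to between 18 and 36 of 37 and their median to between -0.76 and -0.39. Over the other alternatives that number was 27 to 37 and the median -0.64 to -0.44. All genes at an unadjusted p under 0.05 numbered 1344 with background as a covariate, 501 with limma-trend on the deposited CPM, 362 without A1 and 1749 without A4. The median of all genes lay between -0.057 and 0.064. The direction turned for Bbc3 without A3, with a range of -0.14 to 0.043 over left-out libraries, for Xist without A2 (-4.33 to 0.46) and for Igj without B1 (-0.067 to 1.41) and with voom (-0.046). Pmaip1 turned to -0.31 without the P libraries, -0.31 without the P and W libraries and -0.25 with naming series as a covariate, and Fos to -0.30, -0.32 and -0.60 under those 3. Btg2 turned to -0.0018 with naming series as a covariate. Many list medians turned too. Stem cell genes went to -0.043 and interferon response genes to -0.10 without A2. Without the P libraries p53 targets of repair and metabolism went to -0.087, megakaryocyte genes to 0.12 and erythroid genes to 0.37. Multipotent progenitor genes went to -0.034 with naming series as a covariate. With the replicate block granulocyte genes, with a median of 0.52, went to -0.24, T and NK cell genes to -0.31 and histone H2A ubiquitin genes to 0.037. With background as a covariate B and plasma cell genes went to -0.049, mast cell and basophil genes to -0.053 and receptor genes to -0.15. Stress and heat shock genes went to 0.070 without A1, and monocyte and macrophage genes to -0.049 without P3. The difference between populations kept 0 called genes under all 6 alternatives and 17 left-out libraries.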
